A study of Mus musculus with 16 samples.

Results

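The miR-146 family of the mouse is described here across 16 arrays of sciatic nerve, through all probes whose name on the array was mmu-miR-146a, mmu-miR-146b or mmu-miR-146b*. These 3 names of the 650 on the array were carried by 8 of its 1857 probes. mmu-miR-146a and mmu-miR-146b had 2 probes each with 10 spots per probe, and mmu-miR-146b* had 4 probes with 5 spots per probe. The family was chosen by its log2 differences between the genotypes at p4 and between the ages in controls, so these comparisons are given as a description, with no test.

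Total RNA was taken from sciatic nerves of mice in which the miRNA-processing enzyme Dicer was ablated in Schwann cells, and of controls. The mutants were Dicer fl/fl Dhh-Cre+ and the controls Dicer wt/fl Dhh-Cre+, taken at embryonic day 17 (E17) or postnatal day 4 (p4). They came from a cross of Dhh-Cre carriers with floxed Dicer mice, labelled with the strain name Dicer1tm1Bdh/J, and the genotypes were littermate pairs. Each of the 4 groups held 4 mice, with 1 array for every mouse. The controls thus also carried Cre and 1 floxed Dicer allele. The Dhh promoter drives Cre in Schwann cells, whereas other cells of the nerve, such as endothelial cells, blood cells and most fibroblasts, are not its intended targets. Dicer mRNA is not measured by a miRNA array, and the deletion was not checked here.

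miR-146a and miR-146b are made from separate genes and are best known from innate immunity, where NF-kB signaling induces miR-146a and the miRNA in turn represses Irak1 and Traf6, adaptors that carry the signal from Toll-like and interleukin-1 receptors. Each is cut by Dicer from a hairpin with 2 arms, and the star marks the arm that is usually degraded. In the nerve, Schwann cells wrap axons with myelin and also respond to such signals after injury.

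The mature sequences show how close the 2 miRNAs are, since this closeness bears on what the probes can tell apart. They are given as in RefSeq (GRCm38.p6), 5′ to 3′, with the seed (bases 2 to 8, which pair with target mRNAs) in capitals.
mmu-miR-146a-5p: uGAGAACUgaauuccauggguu
mmu-miR-146b-5p: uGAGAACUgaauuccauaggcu
mmu-miR-146b-3p: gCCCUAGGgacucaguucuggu
The array names without an arm were read as the 5p arms and mmu-miR-146b* as the 3p arm of miR-146b, by the older naming. Counted from 1 at the 5′ end, miR-146b-5p differs from miR-146a-5p by G18A and U21C, so that 20 of 22 bases and the whole seed are shared. These were the only 2 of 1679 mature names in the RefSeq table with this seed, and the seed of miR-146b-3p was held by no other name. miR-146a-5p lies at chr11:43374435-43374456 on the minus strand in Mir146, a gene that no other gene of the RefSeq table overlapped. miR-146b-5p lies at chr19:46342790-46342811 and miR-146b-3p at chr19:46342828-46342849, both on the plus strand in Mir146b, which overlaps the long noncoding RNA gene Gm36493. Probe sequences were not used here, and whether the probes of either miRNA also bind the other was not tested.

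Between 197 and 260 miRNAs were detected per array, and no miR-146 spot was saturated. Total background-subtracted signal was 36495 to 60373 scanner units in E17 controls, 39097 to 50827 in E17 mutants, 122860 to 154076 in p4 controls and 56841 to 83630 in p4 mutants. All arrays of an age shared 1 slide, so age and slide cannot be told apart, whereas both genotypes lay on each slide. Values below are log2 median spot signals, quantile normalized over all 16 arrays. They contain the background of the array, so a probe with no target still reads near 6, and a spot counted as well above background only where the scanner software marked it so.

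miR-146b probes were well above background in p4 control nerves alone. Its brighter probe, A_54_P2006, read 8.39, 8.12, 8.09 and 8.08 on the p4 control arrays. On the p4 mutant arrays it read 6.02, 6.16, 5.99 and 6.02. At E17 it read 6.22, 6.12, 6.07 and 6.08 in controls and 5.98, 6.01, 5.96 and 5.99 in mutants. All 40 spots in p4 controls were well above background, and 0 of 40 spots in each of the other 3 groups were. The p4 control arrays thus stood clear of the other 12 arrays, the lowest of them 1.86 above the highest of the rest.

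The mean log2 signal of A_54_P2006 was 8.17 ± 0.15 (SD, n = 4) in p4 controls and 6.05 ± 0.08 in p4 mutants, a log2 difference of -2.12 (SE 0.0619). Since the mutants were not well above background, the fold is a bound on this quantile-normalized scale, at least 3.70-fold lower in the mutants. This bound sets the control mean against the lowest signal that counted as well above background on each mutant array. Bounds here hold on that scale only, and under the alternative processing the log2 difference ran from -5.17 to -1.52. Among the 681 probes of expressed miRNAs, 3 had a more negative difference between the genotypes at p4. In controls the probe was 2.05 (SE 0.0619) higher at p4 than at E17, at least 3.65-fold, and none of the 681 probes had a larger rise. Non-overlapping arrays with the mutant lower were found for 20% of all probes at p4, and with p4 higher for 20.9% in controls. In these bulk samples fewer Schwann cells and less miRNA per cell cannot be told apart.

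The dimmer probe of miR-146b, A_54_P2005, had the same pattern at a smaller size. It read 6.54 to 6.69 on the p4 control arrays and 5.87 to 6.01 on the p4 mutant arrays. At E17 it read 5.88 to 5.92 in controls and 5.85 to 5.93 in mutants. All 40 of its spots were well above background in p4 controls and 0 of 40 in each other group. The differences were -0.68 (SE 0.0365) between the genotypes at p4, at least 1.24-fold, and 0.69 between the ages in controls, at least 1.23-fold. They were -0.07 and 0.07 after scaling to the 75th percentile of commonly detected probes, where the median of all probes was 0.79 and -0.74, and -4.58 and 5.02 with background-subtracted, floored signals. Over the 16 arrays the 2 probes had a Pearson r of 0.995, 0.794 once each group's mean was taken out and 0.167 after the percentile scaling.

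**Figure D1:**
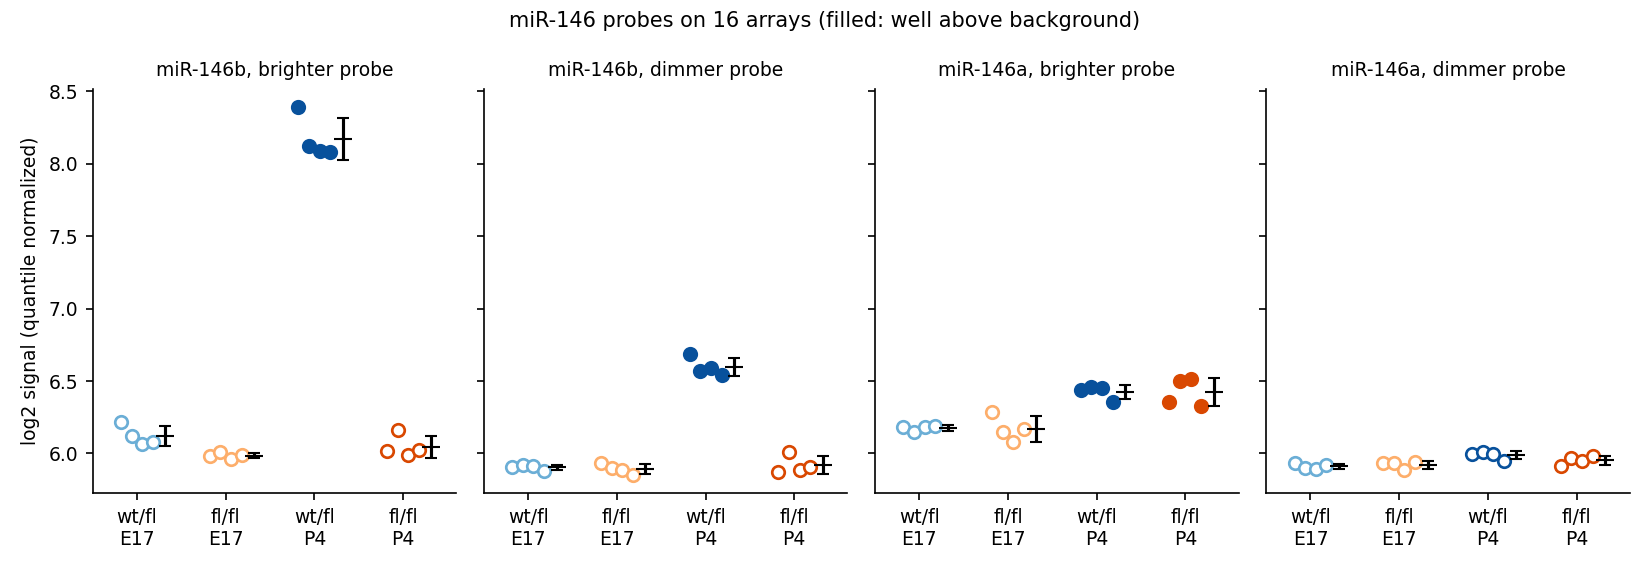
Quantile-normalized log2 signal (y axis) of the brighter and dimmer probes of miR-146b and miR-146a on each array, by genotype and age (x axis, 4 arrays per group), with the mean and SD beside each group in black. Filled points were well above background. miR-146b probes were filled in p4 controls alone, whereas the brighter miR-146a probe was filled in both genotypes at p4.

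miR-146a, in contrast, had overlapping arrays of both genotypes at p4. Its brighter probe, A_54_P2317, read 6.44, 6.46, 6.45 and 6.35 in p4 controls. In p4 mutants it read 6.36, 6.50, 6.51 and 6.33. At E17 it read 6.19, 6.15, 6.18 and 6.19 in controls and 6.29, 6.15, 6.08 and 6.17 in mutants. The genotypes overlapped at E17 as well, and every p4 array read higher than every E17 array. The probe was well above background on 4 of 4 arrays of each genotype at p4 and on 0 of 4 of each at E17, with 39 and 33 of 40 spots above background in p4 controls and p4 mutants against 4 and 3 of 40 in E17 controls and E17 mutants.

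The mean log2 signal of A_54_P2317 was 6.43 ± 0.05 (SD, n = 4) in p4 controls, and p4 mutants had 6.43 ± 0.10. The difference was -0.00 (SE 0.0495), -0.22 without normalization and 0.66 after percentile scaling, where the median of all probes was 0.79. In controls p4 exceeded E17 by 0.25 (SE 0.0495), at least 1.09-fold, while scaling to the 75th percentile turned this to -0.43, where the median of all probes was -0.74. The dimmer probe of miR-146a, A_54_P2318, was well above background on no array and read 5.88 to 6.01 over all 16. With quantile normalization A_54_P2317 had a mean of 6.43 in both genotypes at p4, while miR-146b was well above background in controls alone. Whether miR-146b adds to the signal of A_54_P2317 was not tested.

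The 4 probes of miR-146b*, the other arm of the same hairpin, read 5.77 to 5.91 over the 16 arrays, and 0 of their spots were well above background. The scanner software detected miR-146b* on 0 of 16 arrays, so it was not tested. One of its probes, A_54_P3628, read 5.85 to 5.91 in p4 controls and 5.77 to 5.82 in p4 mutants without overlap. The genotypes overlapped at p4 on its other probes. Such non-overlap with the mutant lower was found for 20% of the 681 probes of expressed miRNAs, a set that leaves out the miR-146b* probes. The share among probes of miRNAs that were not expressed was not counted. As both groups were not well above background on A_54_P3628, no fold is given.

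Without normalization between arrays the same contrast between the 2 miRNAs was seen. The scanner software gives each miRNA a background-subtracted signal summed over its probes. For miR-146b it was 337, 337, 308 and 237 units in p4 controls. The p4 mutants had 1.73, 8.86, 3.41 and 2.15 units. At E17 it was 3.01 to 8.21 in controls and 1.37 to 2.94 in mutants. miR-146b was detected on 4 of 4 arrays in p4 controls, 1 of 4 in E17 controls and on 0 of 4 in each mutant group. As a share of the array's total, miR-146b made up 0.226% ± 0.0283 (SD, n = 4) in p4 controls and 0.00556% ± 0.00368 in p4 mutants.

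For miR-146a the background-subtracted signal was 27.5, 36.1, 29.0 and 19.4 units in p4 controls. In the 4 p4 mutants it was 13.6, 21.8, 20.2 and 14.97 units. It was 5.40 to 11.4 in E17 controls and 5.49 to 8.37 in E17 mutants. The genotypes overlapped at both ages, and the p4 arrays lay above the E17 arrays. On this scale the mean at p4 was 28.0 units for controls and 17.6 for mutants, beside the lower total signal of the mutant arrays. As a share of the total, miR-146a made up 0.0206% ± 0.00333 (SD, n = 4) in p4 controls and 0.0258% ± 0.00692 in p4 mutants, against 0.0153% and 0.0166% in E17 controls and E17 mutants.

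**Figure D2:**
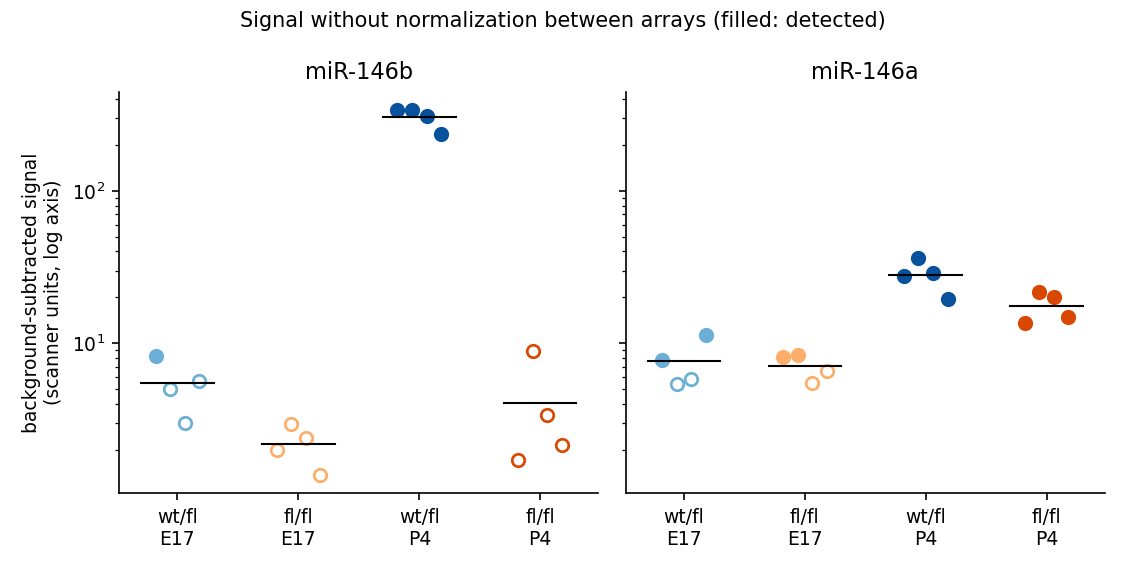
Background-subtracted signal of miR-146b and miR-146a in scanner units (y axis, log scale) on each array, by genotype and age (x axis, 4 arrays per group), without normalization between arrays. Filled points were detected by the scanner software and lines are group means. miR-146b lay at 237 to 337 units in p4 controls and at 8.86 or less elsewhere.

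Ordered by mean, miR-146b (A_54_P2006) was highest in p4 controls, followed by E17 controls, p4 mutants and E17 mutants. The last 3 groups were not well above background, and E17 controls overlapped p4 mutants, which in turn overlapped E17 mutants. For miR-146a (A_54_P2317) the p4 groups came first, followed by the E17 groups, and the genotypes overlapped within each age.

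The comparison of genotypes at E17, before myelination, was tested by limma with Benjamini-Hochberg adjustment over the 681 probes. miR-146b counted as expressed through p4 controls alone, where it was detected on 4 of 4 arrays, and the E17 control and p4 mutant arrays also entered the differences by which the family was chosen. Its tests at E17 and in mutants thus compare signals that were not well above background and say little of its level. To be called, a probe needed an adjusted p no higher than 0.05 together with a log2 difference of 0.5 or more in either direction. None of the 4 miR-146 probes of expressed miRNAs was called (0 of 4), against 2.79% of all probes. At an unadjusted p under 0.05 the count was 1 of 4. By the methods' t-test with the same limits it was 0 of 4, against 13 of all 681 probes. The share of all 681 probes at the unadjusted limit was not counted, so the 1 of 4 cannot be judged. miR-146b (A_54_P2006) differed by -0.14 (SE 0.0619), with an unadjusted p of 0.0465 and an adjusted p of 0.177 by limma. Its 4 mutant arrays read lower than its 4 control arrays without overlap, as was the case for 12.2% of all probes, and neither group was well above background. The dimmer probe of miR-146b differed by -0.01 (adjusted p = 0.858 by limma). miR-146a (A_54_P2317) differed by -0.00 (95% interval -0.11 to 0.10, adjusted p = 0.954 by limma) and its dimmer probe by 0.01 (adjusted p = 0.792).

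With the background subtracted, scaled to a percentile and floored in place of quantile normalization, the E17 difference of miR-146b was -1.01 with an adjusted p of 0.0173 by limma, past both limits. This setting called 85 of the 681 probes at E17, against 19 with quantile normalization. Neither E17 group was well above background, and miR-146b counted as expressed through p4 controls alone. The call thus says little of the level of miR-146b at E17.

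From E17 to p4 in mutant nerves, none of the 4 probes was called (0 of 4), against 7.05% of all probes. The count at an unadjusted p under 0.05 was 1 of 4, with no share of all probes counted at that limit. By the methods' t-test it was 0 of 4, against 38 of all 681 probes. miR-146a (A_54_P2317) was 0.26 higher at p4 (SE 0.0495, 95% interval 0.15 to 0.36), with an adjusted p of 0.00167 by limma and no overlap of the arrays. An adjusted p of at most 0.05 at any size was reached by 28.3% of all probes, and non-overlapping arrays with p4 higher by 12% of them. The difference lay under the limit of 0.5 and corresponded to at least 1.01-fold, since the E17 mutants were not well above background. By the methods' t-test its adjusted p was 0.0505. After scaling each array to the 75th percentile of its commonly detected probes the value was -0.17, where the median of all probes was -0.38.

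miR-146b (A_54_P2006) differed by 0.06 between p4 and E17 mutants (95% interval -0.07 to 0.19, adjusted p = 0.523 by limma), with neither group well above background. Its dimmer probe differed by 0.03 (adjusted p = 0.644). miR-146b was detected on 0 of 4 arrays in each mutant group. These tests compare signals near background, so they say little of its change with age in mutants. The difference between the ages was thus 2.05 in controls and 0.06 in mutants for miR-146b, and 0.25 in controls and 0.26 in mutants for miR-146a. The change in the age difference with genotype was not tested, since it contains the comparisons by which the family was chosen.

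**Figure D3:**
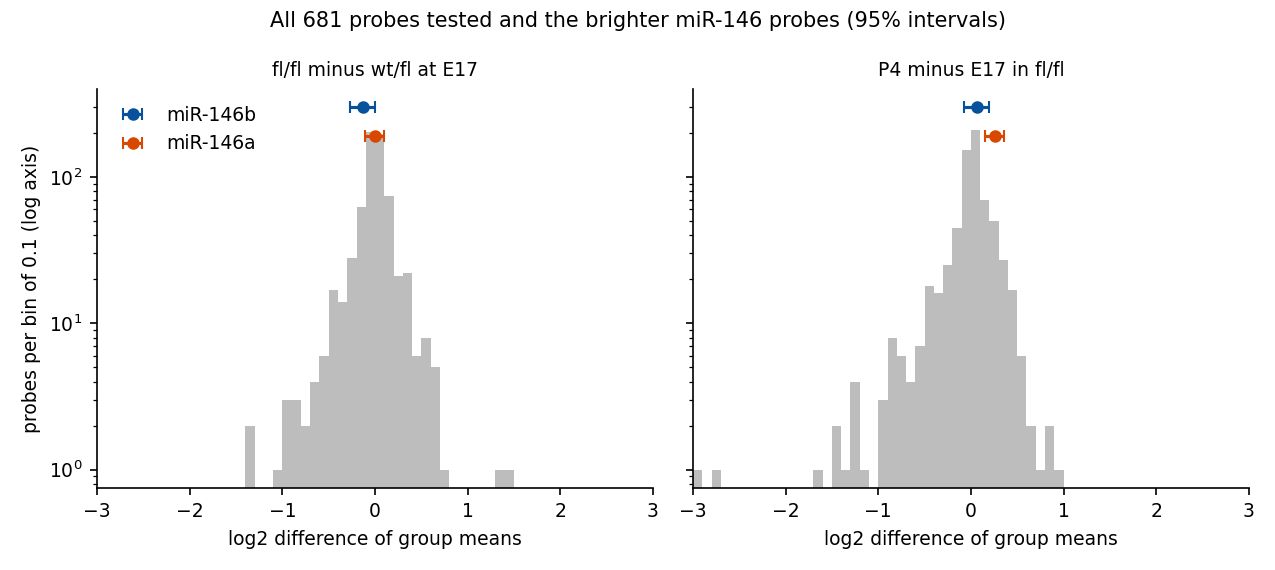
Histograms of the log2 differences of all 681 probes tested (x axis, bins of 0.1; y axis, probes per bin on a log scale) for mutants minus controls at E17 and for p4 minus E17 in mutants. Points with 95% intervals, placed at arbitrary heights, are the brighter probes of miR-146b (-0.14 and 0.06) and miR-146a (-0.00 and 0.26).

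Among the cell type lists, that for myelinating glia was highest in p4 controls, as was miR-146b. The neuron list was highest there in summed background-subtracted signal but not as a share of the total. The same held for the median sums of the leukocyte list (847 units, against 742 in p4 mutants) and the endothelial list (1244 against 1100). For these latter lists the genotypes overlapped at p4. Total signal was highest in p4 controls as well. The glial list holds miR-338-3p and miR-219, of which miR-219 was detected on no array. Its summed background-subtracted signal was 2785 to 3783 units in p4 controls against 112 to 250 in p4 mutants. At E17 it was 312 to 672 in controls and 286 to 388 in mutants. p4 controls were highest here too, also as a share of the total signal (2.11% to 3.08%, against 1.32% or less on every other array). The neuron sum of 3 miRNAs was 148 to 165 units in p4 controls and 63.0 to 92.9 in p4 mutants, against 57.5 to 147 in E17 controls and 63.1 to 94.7 in E17 mutants. As a share of the total it was 0.107% to 0.125% in p4 controls and 0.109% to 0.142% in p4 mutants. The genotypes thus overlapped at p4, and both lay below both E17 groups. With quantile normalization the genotypes at p4 differed by -0.68 for miR-9 (A_54_P2294), 0.31 for miR-124 (A_54_P4366) and 0.10 for miR-128 (A_54_P00002292). The part of these lists in the miR-146b values was not tested.

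The sums for leukocytes and endothelial cells, which are known to make miR-146a, and for fibroblasts and smooth muscle were higher at p4 in both genotypes, as were miR-146a and the total signal. The leukocyte sum of 6 miRNAs was 324 to 462 units in E17 controls and 330 to 426 in E17 mutants, and 836 to 972 in p4 controls and 639 to 934 in p4 mutants. Of its defining members miR-142-5p and miR-150 were detected on no array. The endothelial sum, carried by miR-126-3p, was 348 to 613 and 445 to 569 units in E17 controls and E17 mutants, and 1138 to 2381 and 927 to 1512 in p4 controls and p4 mutants. The fibroblast and smooth muscle sum of 5 miRNAs was 1781 to 3368 and 2941 to 3540 units in E17 controls and E17 mutants, and 4139 to 5658 and 4020 to 7293 in p4 controls and p4 mutants. As a share of the total, the leukocyte list made up 0.765% to 0.887% in E17 controls and 0.631% to 0.685% in p4 controls, against 0.838% to 0.960% in E17 mutants and 0.983% to 1.26% in p4 mutants. The share of this list was thus lower at p4 in controls and higher at p4 in mutants. The fibroblast and smooth muscle share was 3.51% to 5.94% in E17 controls and 3.20% to 3.67% in p4 controls. In mutants it was 6.96% to 7.69% at E17 and 7.07% to 8.72% at p4. The endothelial share was 0.730% to 1.02% in E17 controls and 0.908% to 1.55% in p4 controls. In mutants this share was 1.11% to 1.46% at E17 and 1.55% to 1.81% at p4. With quantile normalization, members of these lists moved both ways from E17 to p4. miR-214 (A_54_P2620) differed by -1.15 in controls and -0.59 in mutants, and miR-142-3p (A_54_P2308) by -0.27 and -0.46. In contrast, miR-143 (A_54_P2405) differed by 0.44 and 0.46, and miR-223 (A_54_P2630) by 0.04 and 0.49. The part of these lists in the miR-146a values was not tested.

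The other miRNAs linked to NF-kB signaling were a list of 8, all on the array and 7 of them expressed. miR-147 was not expressed. At E17 none of the 7 was called between the genotypes (0 of 7), against 6.05% of all 281 expressed miRNAs. The methods' t-test called 0 of 7 as well, against 13 of all 681 probes. An unadjusted p under 0.05 by limma was reached by the brightest probes of 3 of 7, in differing directions. These were miR-132 (0.14), miR-223 (0.36) and miR-9 (-0.31). The share of all expressed miRNAs at this unadjusted limit was not counted, so the 3 of 7 cannot be judged. The median difference of the list was 0.14 against -0.00 over the brightest probes of all expressed miRNAs. From E17 to p4 in mutants 1 was lower, 0 were higher and 6 were not called, against 7.47% lower and 3.2% higher of all expressed miRNAs. The median difference was 0.05 against 0.03.

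The called miRNA was miR-9, which is abundant in neural tissue and is induced by Toll-like receptor signals in monocytes. It read 6.80 to 7.05 in E17 mutants and 5.97 to 6.11 in p4 mutants, a difference of -0.87 (adjusted p = 0.000174 by limma), and in p4 mutants it was not well above background. In controls it read 6.90 to 7.73 at E17 and 6.66 to 6.79 at p4.

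miR-223, a miRNA of granulocytes and monocytes, was 0.49 higher in p4 than in E17 mutants (adjusted p = 0.00619 by limma), just under the limit of 0.5. It read 8.05 to 8.28 in E17 mutants and 8.24 to 8.91 in p4 mutants, so the arrays overlapped. In controls it read 7.72 to 7.86 at E17 and 7.59 to 7.95 at p4.

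miR-155, which is induced with miR-146a in activated macrophages, was well above background on no array. The scanner software detected it on no E17 array, so it counted as expressed through p4 alone. It differed by 0.19 between the ages in mutants (adjusted p = 0.000314 by limma). As miR-155 was admitted only through the age where it read higher, this test says little of its change with age. miR-132 differed by 0.14 between the genotypes at E17 (adjusted p = 0.0865) and by 0.11 between the ages in mutants (adjusted p = 0.119). miR-21, a growth-related miRNA, differed by 0.23 (adjusted p = 0.455) and 0.05 (adjusted p = 0.884), each with an SE of 0.18. miR-125b-5p, which targets TNF mRNA, differed by 0.19 and -0.10 (adjusted p = 0.644 and 0.784), and let-7e by -0.00 and -0.16 (adjusted p = 0.996 and 0.566).

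The miRNAs whose brightest probe was most like A_54_P2006 of miR-146b over the 16 arrays, out of 279 others, were miR-138 (Pearson r = 0.986), miR-138* (0.980), miR-340-5p (0.975), miR-24-1* (0.961) and miR-338-5p (0.959). These correlations are a description across arrays that share groups, and 29 of the 279 had an r over 0.8. miR-138 read 7.15 ± 0.10 (SD, n = 4) in p4 controls and 6.21 ± 0.06 in p4 mutants, against 6.10 and 6.07 in E17 controls and E17 mutants. miR-338-5p, from the same hairpin as the glial miR-338-3p, read 6.51 ± 0.08 at p4 in controls and 5.91 ± 0.02 in mutants of that age. The other 3 had means of 6.46 to 6.51 in p4 controls and 6.05 to 6.06 in p4 mutants. With each group's mean taken out, the r of the 5 was 0.32 to 0.76. Scaling to the 75th percentile left 0.79 for miR-138 and turned the other 4 negative, to between -0.31 and -0.11.

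For A_54_P2317 of miR-146a the most alike were miR-497 (r = 0.897), miR-28 (0.876), miR-195 (0.870), miR-29c (0.837) and miR-221 (0.835), and 7 of the 279 had an r over 0.8. miR-497 read 7.53 ± 0.09 (SD, n = 4) in p4 controls and 7.26 ± 0.07 in p4 mutants, against 6.58 and 6.57 in E17 controls and E17 mutants. All 5 had higher means at p4 than at E17 in both genotypes. With group means taken out the r was -0.08 to 0.43, and after percentile scaling it turned negative for miR-497 (-0.02) and miR-195 (-0.28). Between miR-146a and miR-146b themselves r was 0.525, and 0.224 with group means taken out.

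**Figure D4:**
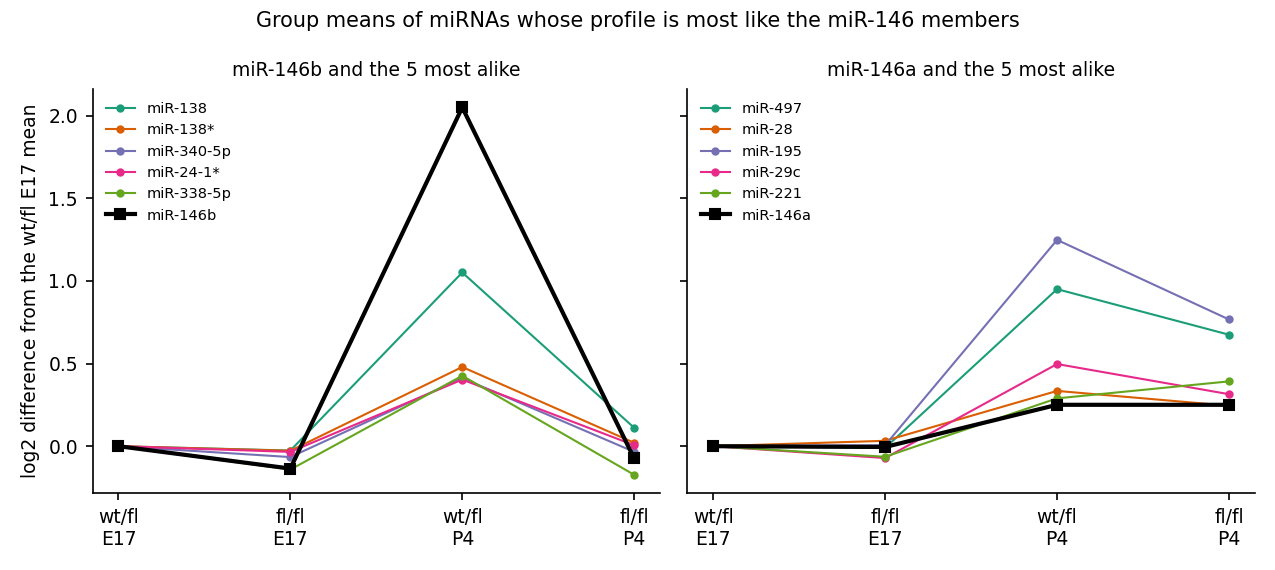
Group means on the log2 scale, given as the difference from E17 controls (y axis), for miR-146b, miR-146a and the 5 miRNAs most like each, by genotype and age (x axis, 4 arrays per group). miR-146b was 2.05 higher in p4 controls, with miR-138 next, and all lines of that panel lie near 0 in p4 mutants, whereas the lines for miR-146a and the miRNAs like it stay above 0 in both genotypes at p4 with quantile normalization.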

How the data were processed

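Total RNA of 16 sciatic nerve samples (4 groups of 4 mice, from the labels) was labeled with Cy3, and each sample was hybridized to 1 Agilent mouse miRNA array. The authors deposited spot intensities from the scanner software (Agilent Feature Extraction 10.5.1.1), not normalized between arrays, plus quantile-normalized probe intensities with present flags. The headers give the design as 021828, and flags for background, outliers and detection were used as other columns of the deposited files.

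Median spot signals of 13000 non-control spots were taken to log2, quantile normalized and averaged per probe without outlier spots. A probe was well above background where most of its spots were. miRNAs detected on 0.5 or more of a group's arrays counted as expressed (281 miRNAs, 681 probes). Group means were fitted on all arrays by limma 3.58.1 in R 4.3.3, and steps were tested on simulated data. All probes of the 3 names, the NF-kB list, moving cell type lists and the 5 most alike profiles are named. The members and lists were chosen with earlier results of these data known. Sequences came from RefSeq. The number of arrays limits the precision. Alternatives were signal, scaling, filter, limits, test, arrays fitted, weights, replicate block, the authors' intensities and leaving out each array.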

Additional observations from a re-analysis of the deposited data

Results flagged for a closer look

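In 5 of 40 groups of 4 values, 1 array lay farther from its group than Dixon's 95% critical value allows. Chance gives about 1 in 20 such groups. The p4 control replicate 1 read 8.39 for miR-146b (A_54_P2006) against 8.08 to 8.12 on the other 3 arrays. For miR-146a (A_54_P2317) the E17 control replicate 2 read 6.15 against 6.18 to 6.19, and the p4 control replicate 4 read 6.35 against 6.44 to 6.46. For miR-146b*, not well above background on any array, the p4 control replicate 4 read 5.85 on A_54_P3628 against 5.90 to 5.91, and the E17 control replicate 3 read 5.86 on A_54_P3626 against 5.81 to 5.82.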

How the results depend on the processing

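The difference of miR-146b (A_54_P2006) between the genotypes at p4 kept its sign under all 10 alternatives and when each array was left out (-2.18 to -2.03), as did its age difference in controls (1.95 to 2.10). The 2 values were -2.84 and 3.04 without normalization, -1.96 and 1.88 with scaling to the 75th percentile of commonly detected probes, -5.17 and 4.42 with background-subtracted, floored signals, -1.52 and 1.48 with normexp on the median signal, and -2.25 and 2.14 with the authors' intensities. The normexp setting was chosen after seeing the data, because the files hold no mean signal and the planned one was not run. Those of miR-146a (A_54_P2317) were -0.22 and 0.73, 0.66 and -0.43, 0.34 and 0.63 under the first 3 of these, and 0.17 between the ages in controls with normexp. Leaving out an array gave -0.03 to 0.03 and 0.23 to 0.27. The medians of all probes in these 2 comparisons were -0.09 and 0.42 without normalization, 0.79 and -0.74 with the percentile and 0.46 and -0.23 with floored signals.

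At E17 miR-146a turned to 0.27 without normalization, 0.40 with the percentile, 0.19 with floored signals, 0.00255 with array weights and 0.0665 with the authors' intensities, and miR-146b to 0.18 without normalization and 0.31 with the percentile, and to -1.01 with floored signals, the only E17 call of a miR-146 probe. Leaving out an array gave -0.0451 to 0.0269 for miR-146a and -0.16 to -0.10 for miR-146b (adjusted p 0.0549 to 0.402 by limma). The median of all probes at E17 itself moved to 0.25 and 0.38 in the first 2 settings. Relative to it miR-146a was at 0.02 and miR-146b at -0.07 in both. In mutants from E17 to p4, miR-146a was called at 0.78 with floored signals and, at its value of 0.26, with no limit on size. With the percentile it was at -0.17 and miR-146b at -0.40, or 0.22 and -0.01 relative to the median of all probes (-0.38). Leaving out an array gave 0.23 to 0.30 and 0.02 to 0.08. The cause of these shifts was not tested.

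The dimmer probe of miR-146b at E17 turned to 0.31 without normalization, 0.44 with the percentile and 0.00351 with normexp, and between the ages in mutants to -0.0330 and -0.44 under the first 2. Leaving out an array gave it -0.0255 to 0.000855 and -0.00302 to 0.0432. The dimmer probe of miR-146a turned to -0.26 at E17 with floored signals and to -0.0257 and -0.43 between the ages in mutants without normalization and with the percentile.

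The count of NF-kB-linked miRNAs called at E17 was 0 when each array was left out, 2 with floored signals and 1 with no limit on size. The latter settings called 85 and 70 of all 681 probes, against 19 with the main settings. Between the ages in mutants the count was 5 without normalization, 3 with the percentile, 4 with floored signals and 2 with array weights. It was 2 with the authors' intensities, 4 with no limit and 0 with a limit of 1. These settings called 106, 118, 179, 51, 64, 193 and 11 of all 681 probes in turn, against 48 with the main settings. The share of expressed miRNAs called under them was not counted. The NF-kB count was 1 to 2 when an array was left out, with 2 without the E17 mutant replicate 1 or the p4 mutant replicate 3. The r between miR-146a and miR-146b was 0.738 without normalization, -0.577 with the percentile and 0.224 with group means taken out. The study used littermate pairs, but the labels do not say that a replicate number marks a pair, and the correlations of their deviations ran from -0.52 to 0.46. With the replicate block the E17 difference of miR-146b had an adjusted p of 0.200 and that of miR-146a between the ages in mutants 0.00143, both by limma, and the probes called numbered 23 instead of 19 at E17 and 48 as before between the ages. The block changed no call of a miR-146 probe. Across settings the probes called at E17 ranged from 0 (limit of 1) to 85 (floored signals), and between the ages in mutants from 11 (limit of 1) to 193 (no limit). Leaving out an array gave 9 to 30 at E17, with 9 without the E17 control replicate 1 and 30 without replicate 4, and 46 to 58 between the ages. Signal over background limits all miR-146b values outside p4 controls.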
